A study of Homo sapiens with 16 samples.

Results

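The genes described here are the replication-dependent histone genes, the genes that encode the H1, H2A, H2B, H3 and H4 proteins made in bulk while DNA is copied. They were taken by symbol, as every gene on the array named H1-1 to H1-6, H2AC, H2BC, H3C or H4C with a number, or by the older HIST names, after old symbols had been replaced through their Entrez identifiers. A total of 66 of the 18334 named genes met this rule, and they were read by 87 of 45220 features. The classes held 6 H1, 15 H2A, 19 H2B, 12 H3 and 14 H4 genes, of which 65 were protein-coding and 1, H2BC19P, was a pseudogene. RefSeq lists 82 genes that meet the rule, and the 16 that no feature named, 4 of them protein-coding (H2AC13, H2AC18, H3C14 and H4C14), are not analysed here. By RefSeq (GRCh38.p14), 54 of the 66 genes lie on chromosome 6, 11 on chromosome 1 and 1 on chromosome 12.

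The cells were A549, an established human lung adenocarcinoma line, exposed to carbon ions (C12) in a spread-out Bragg peak or to X-rays from a clinical linear accelerator, and taken 1h or 4h later. Each of the 4 combinations had 4 arrays, and each array set an irradiated plate against the untreated control plate of 1 culture, 16 cultures in all, with one plate in Cy3 and the other in Cy5. The labels state that RNA of 2 experiments was pooled, and the dose given to these cells is not given in the sources used here. All values below are log2 ratios without levels, so neither the defining markers of A549 nor the order of expression of the histone genes could be read from them.

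Replication-dependent histone mRNAs are the main animal mRNAs that normally carry no poly(A) tail. They end in a stem-loop that the protein SLBP binds, and their transcription needs NPAT at the histone locus bodies, so that their level rises at the start of S phase and falls when DNA synthesis stops. The labelling kit primes from oligo-dT, as is known of this kit, so the ratios refer to whatever part of each histone mRNA was primed, and the share of polyadenylated histone mRNA was not measured. In ratios of 2 plates, fewer cells in S phase and less histone mRNA per cell cannot be told apart. The coding parts of these genes are also very similar to each other within a class, and probe sequences were not used here, so a feature may report close paralogs of the gene it is named for.

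The direction of the deposited ratios was not settled by the labels. Values of replicates 1 and 2 of each group were multiplied by -1, which is likely to give irradiated over control. If the ratios run the other way, every value below changes its sign, with the same sizes and p-values, and a gene given as lower is then higher. In the deposited values, before the multiplication by -1, arrays of one labelled dye did not share a sign. Among C12 arrays with the same labelled dye, 8 of 12 pairs correlated below -0.3 across genes (r from -0.892 to 0.876, median -0.856). With opposite dyes 8 of 16 pairs did. Among X-ray arrays with the same labelled dye r ran from -0.398 to 0.304, a weaker relation between arrays. Genes are not independent replicates, and these correlations describe the arrays.

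The promoters are shown for 1 gene of each class, since the median of every class lay below 0 after X-rays and the classes differ in some of the promoter elements known for them. In each class the gene with the smallest unadjusted p at 4h after X-rays among those with a listed promoter was taken, so the choice followed the values. The sequences are RefSeq's (GRCh38.p14), from 250 bases before to 50 bases after the gene's start, on the gene's strand. Capitals mark the motifs searched on both strands: the octamer ATTTGCAT bound by Oct-1, the TATA box TATAAA, the CCAAT box, the H1 box AAACACA, and GGTCCG, the site in H4 promoters that HINFP binds. None of these strings is contained in another. The windows are chr6:26234938-26235237 (minus strand) for H1-3, chr6:27838326-27838625 (minus) for H2AC15, chr6:26272681-26272980 (plus) for H2BC10, chr6:27809801-27810100 (plus) for H3C10 and chr6:27873485-27873784 (minus) for H4C13.
H1-3: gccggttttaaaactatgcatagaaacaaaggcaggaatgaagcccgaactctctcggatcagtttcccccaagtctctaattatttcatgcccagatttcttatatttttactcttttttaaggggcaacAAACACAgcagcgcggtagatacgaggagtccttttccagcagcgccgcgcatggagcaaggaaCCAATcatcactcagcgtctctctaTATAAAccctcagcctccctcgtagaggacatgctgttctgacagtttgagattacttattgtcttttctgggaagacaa
H2AC15: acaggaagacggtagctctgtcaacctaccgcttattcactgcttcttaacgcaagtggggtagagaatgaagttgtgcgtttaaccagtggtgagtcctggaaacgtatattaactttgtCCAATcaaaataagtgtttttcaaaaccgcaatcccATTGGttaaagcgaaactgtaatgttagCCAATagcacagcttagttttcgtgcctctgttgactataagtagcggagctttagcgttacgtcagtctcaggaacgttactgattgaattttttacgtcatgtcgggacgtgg
H2BC10: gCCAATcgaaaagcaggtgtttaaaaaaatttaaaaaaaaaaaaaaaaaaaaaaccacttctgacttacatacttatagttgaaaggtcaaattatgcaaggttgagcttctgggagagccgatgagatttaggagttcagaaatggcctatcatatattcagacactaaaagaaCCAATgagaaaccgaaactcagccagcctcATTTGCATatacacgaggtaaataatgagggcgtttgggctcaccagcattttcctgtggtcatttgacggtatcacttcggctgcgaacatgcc
H3C10: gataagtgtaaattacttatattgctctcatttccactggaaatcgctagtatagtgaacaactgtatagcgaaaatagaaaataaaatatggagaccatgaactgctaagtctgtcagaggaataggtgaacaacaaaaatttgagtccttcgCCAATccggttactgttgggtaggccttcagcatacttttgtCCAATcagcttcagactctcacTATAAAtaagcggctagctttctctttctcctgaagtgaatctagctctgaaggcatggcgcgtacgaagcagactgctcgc
H4C13: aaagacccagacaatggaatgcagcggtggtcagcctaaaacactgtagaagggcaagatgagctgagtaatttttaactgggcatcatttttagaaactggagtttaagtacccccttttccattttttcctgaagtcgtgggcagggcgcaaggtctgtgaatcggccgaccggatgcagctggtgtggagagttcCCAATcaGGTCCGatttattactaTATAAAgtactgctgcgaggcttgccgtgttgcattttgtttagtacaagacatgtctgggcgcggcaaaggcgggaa
H1-3 held its TATA box 30 bases, a CCAAT box 55 bases and the H1 box 119 bases before the start, and H4C13 held GGTCCG 45 bases before it. H2BC10 held the octamer 45 bases before the start and 2 CCAAT boxes. Of the 66 genes, 60 had a promoter in the table. The octamer stood in 11 of 14 H2A and 14 of 18 H2B promoters, in 1 of 10 H3 promoters (that of H3C4, whose window, the first of 2 listed, is also that of H2AC7) and in none of the H1 and H4 promoters listed, against 1.77% of all 35116 promoters of the same length. The H1 box stood in all 6 H1 promoters and in 2 others (5.64% of all promoters). GGTCCG stood in 11 of 12 H4 promoters and in 3 promoters of other classes (11.3% of all). TATAAA was found in 39 of the 60 (11.5% of all) and CCAAT in 51 (34.6% of all), where H4 was the exception with 3 of 12. Neighbouring H2A and H2B genes on opposite strands started 194 to 248 bases apart in the pairs described below, so the windows of partners overlap. A motif between them can be counted in both classes. In every such pair the octamer stood in both windows or in neither, and GGTCCG stood in both windows of H2AC20 and H2BC21. The H2A and H2B counts are thus not independent of each other. A match describes these letters and shows no binding.

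After X-rays the ratios of the histone genes lay mostly below 0, by a small amount and without any single gene passing the test. At 1h, 53 of 66 estimates were negative (49.2% of all genes), with a median of -0.14 against 0.0027 over all genes. At 4h, 54 of 66 were negative (49.7% of all genes), with a median of -0.17 against 0.00073. The test was limma on all 16 arrays with a group mean for each combination and 1 dye coefficient, adjusted by Benjamini-Hochberg over all 18334 genes at 0.05. It called 0 of 66 histone genes at 1h, where it called 0.0491% of all genes, and 0 of 66 at 4h, where it called 0.567%. At an unadjusted p under 0.05, 10 histone genes were lower at 1h (0.949% of all genes) and 0 higher (1.63%), and at 4h 10 were lower (2.24%) and 0 higher (4.48%). H1-3, H2BC4 and H3C12 were among the 10 at both times. These counts depended on single arrays. Without replicates 1, 2, 3 and 4 in turn, 2, 12, 19 and 5 genes were lower at 1h (2.02%, 1.13%, 1.43% and 0.993% of all genes), and 21, 8, 5 and 2 were at 4h (3.00%, 15.3%, 1.10% and 1.12%). The median at 1h came nearer to 0 without replicate 1 or 4, the arrays whose irradiated plate carried Cy5. Without replicate 1 the median was -0.030 and 37 of 66 estimates were negative, and without replicate 4 they were -0.067 and 49. Replicate 4 itself had a histone median of only -0.0021. Leaving out 1 array unbalances the dyes, so the shared dye coefficient enters these estimates too. The median standard error of a histone gene's estimate was 0.15, and the median half-width of its 95% confidence interval was 0.32, so that the class medians below are smaller than what 1 gene could resolve. The fit took 1 spread per gene from all 16 arrays. Residuals of the histone genes had an SD of 0.23 on C12 and 0.43 on X-ray arrays. Fits on each group alone gave median standard errors of 0.070 in both C12 groups, and of 0.14 at 1h and 0.18 at 4h after X-rays. The shared standard errors and p-values are thus likely too large for C12 and too small for X-ray 4h.

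**Figure D1:**
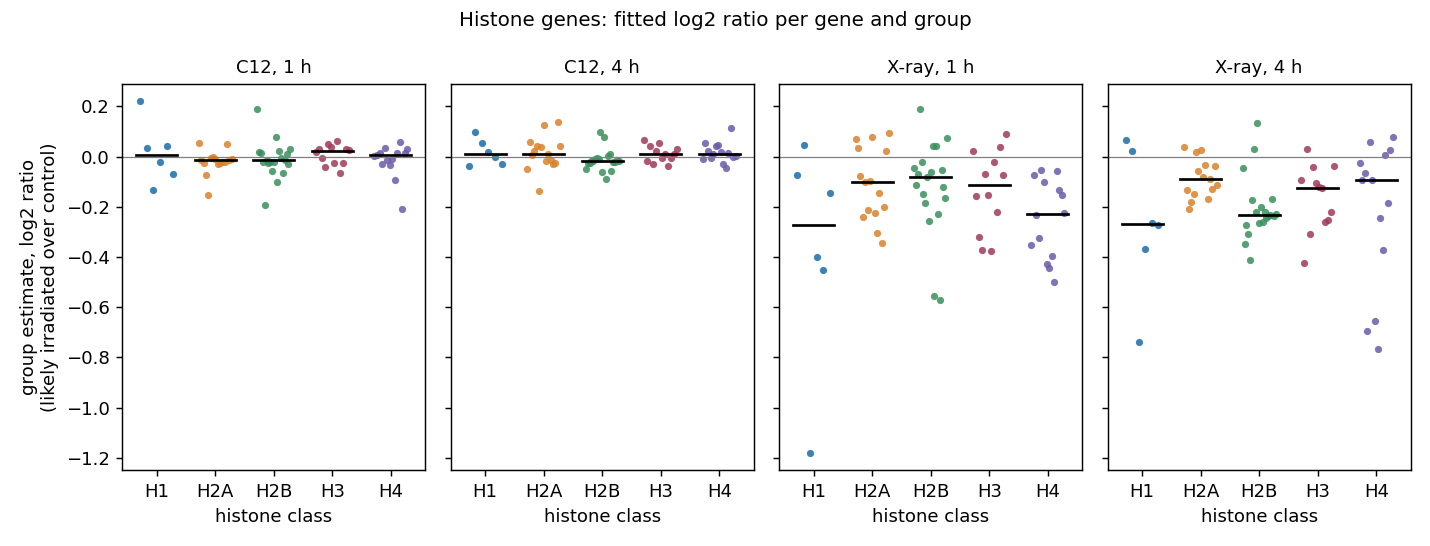
Fitted log2 ratio (y axis, likely irradiated over control) of each of the 66 histone genes by class (x axis) in the 4 groups; each point is 1 gene and each bar the class median. C12 estimates lie close to 0, while most X-ray estimates lie below 0, down to -1.18 for H1-3 at 1h.

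The linker histones, H1, showed the lowest single estimate. H1-3, a somatic linker histone, measured -2.03, -1.08, -0.58 and -1.03 on the 4 arrays at 1h after X-rays. All 4 lay below 0, and the estimate of -1.18 ± 0.35 (SE) was the lowest of all 18334 genes in that group. It did not pass, at an unadjusted p of 0.00325 and a limma adjusted p of 1. Without replicate 1 it was -0.68, so that array, together with the shared dye coefficient, carried a large part of its size. At 4h the arrays gave 0.48, -1.52, -1.18 and -0.73, with an estimate of -0.74 ± 0.35 (SE) and a limma adjusted p of 0.735. There 1 of 4 arrays lay above 0. H1-4 and H1-5, also somatic linker histones, had estimates of -0.40 and -0.45 at 1h and of -0.37 and -0.26 at 4h. H1-1 had -0.072 at 1h and 0.064 at 4h, H1-2 had 0.046 and 0.023, and H1-6, the linker histone of male germ cells, had -0.14 and -0.27. The class median was -0.27 at both times.

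Among the core histones, H4 had negative estimates in all 14 genes at 1h after X-rays, with a class median of -0.23. The H4 genes encode almost the same protein, which pairs with H3 at the centre of the nucleosome. H4C5 had the lowest H4 estimate at 1h, -0.50, from arrays at -1.52, -0.28, 0.32 and -0.51. At 4h, 10 of 14 estimates were negative with a median of -0.092, and 3 genes lay far below the rest. H4C3 measured 1.52, -2.93, -2.28 and 0.62, H4C13 measured 1.13, -2.68, -0.98 and -0.25, and H4C2 measured 0.96, -2.07, -0.88 and -0.62. Their arrays lie on both sides of 0, and H4C3 held both the highest and the lowest histone value of that group. Their estimates were -0.77 ± 0.42 (SE) for H4C3, -0.70 ± 0.41 for H4C13 and -0.66 ± 0.40 for H4C2, and the limma adjusted p was between 0.815 and 0.853. Leaving out 1 array of the group moved H4C3 between -1.39 and -0.19. H4C9 was the highest H4 gene at 4h with 0.077.

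H3 lay below 0 in 9 of 12 genes at 1h (median -0.11) and in 11 of 12 at 4h (median -0.12). H3C10, which like most of its class encodes a replication-coupled H3, measured -0.028, -0.65, -0.32 and -0.70 at 4h after X-rays. All 4 arrays lay below 0, and the estimate was -0.43 ± 0.14 (SE), with a limma adjusted p of 0.378. At 1h its arrays lay on both sides of 0 at -0.17, -0.28, 0.27 and -0.44. H3C12 was low at both times, with -0.37 at 1h and -0.31 at 4h. H3C11 was at -0.32 at 1h and at 0.031 at 4h, the only H3 gene above 0 there.

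H2B forms a dimer with H2A in the nucleosome. At 4h after X-rays 17 of 19 H2B estimates were negative, the class median was -0.23, and 6 genes had an unadjusted p under 0.05. H2BC10 had the smallest adjusted p of all histone genes, 0.322 by limma. Its arrays gave 0.37, -0.73, -0.76 and -0.27, and its estimate was -0.35 ± 0.11 (SE). H2BC13 had the lowest H2B estimate, -0.41, from 0.42, -0.69, -0.72 and -0.65. In both genes replicate 1 alone lay above 0. H2BC18 stood highest at 4h with 0.13. At 1h the H2B median was -0.083, and H2BC5 and H2BC26 stood below the rest at -0.57 and -0.56.

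Those 2 low values came from 1 of 2 features of each gene. For H2BC5 one feature had an estimate of -0.17 and the other -0.97 at 1h after X-rays. On replicate 1 they measured 0.22 and -1.76. For H2BC26 the features had -0.12 and -1.0, and measured 0.22 and -1.73 on replicate 1. The low features of both genes gave nearly the same values there, and so did the higher ones. Of the 19 histone genes with more than 1 feature, the signs of the features differed in 9, 8, 6 and 6 genes in C12 1h, C12 4h, X-ray 1h and X-ray 4h.

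H2A, the partner of H2B, had a median of -0.10 at 1h after X-rays (10 of 15 negative) and of -0.091 at 4h (12 of 15 negative), and no H2A gene had an unadjusted p under 0.05. H2AC4 was lowest at 1h with -0.34, H2AC12 lowest at 4h with -0.21, and H2AC8 highest at 1h with 0.095.

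Counted array by array, 8 histone genes lay below 0 on 4 of 4 arrays at 1h after X-rays, where 3.14% of all genes did, and 5 did so at 4h, where 2.90% of all genes did. At 1h these were H1-3, H2BC5, H2BC18, H2BC26, H3C2, H3C12, H4C1 and H4C8. At 4h they were H1-6, H2BC11, H3C4, H3C6 and H3C10. These genes are named after their values were seen. The values are means over the features of a gene. For H3C2 at 1h and H3C4 at 4h no single feature lay below 0 on all 4 arrays. A feature of H2BC5 and of H2BC26 also measured 0.22 on replicate 1 at 1h, and a feature of H2BC11 0.30 on replicate 3 at 4h. The array medians of the 66 genes were -0.16, -0.32, -0.13 and -0.0021 at 1h and 0.33, -0.53, -0.39 and -0.16 at 4h. The last group therefore held 1 array, replicate 1, on which 52 of 66 histone genes lay above 0.

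Replicate 2 of the X-ray 4h group stood apart from the other arrays, with an array weight of 0.0837 against 0.226 to 3.67 on the others. Without it the median at 4h was -0.17, 51 of 66 estimates were negative, and 1 gene passed: H3C3 at -0.44 ± 0.12 (SE), with a limma adjusted p of 0.0322. In that fit 7.21% of all genes passed. With all arrays, at 0.012, 0.30, -0.66 and -0.16, its estimate was -0.13. Without replicate 4 the median was -0.089 and 43 of 66 were negative, and without replicate 1 they were -0.24 and 60. A fit on the 4 arrays of the X-ray 4h group alone called H1-3 and H4C3 (limma adjusted p of 0.0358 and 0.0211), among 0.453% of all genes. In that fit the standard errors of the 66 genes ran only from 0.182 to 0.198. The spread of each gene was thus drawn mostly from that common to all genes, and little from its own 4 arrays.

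**Figure D2:**
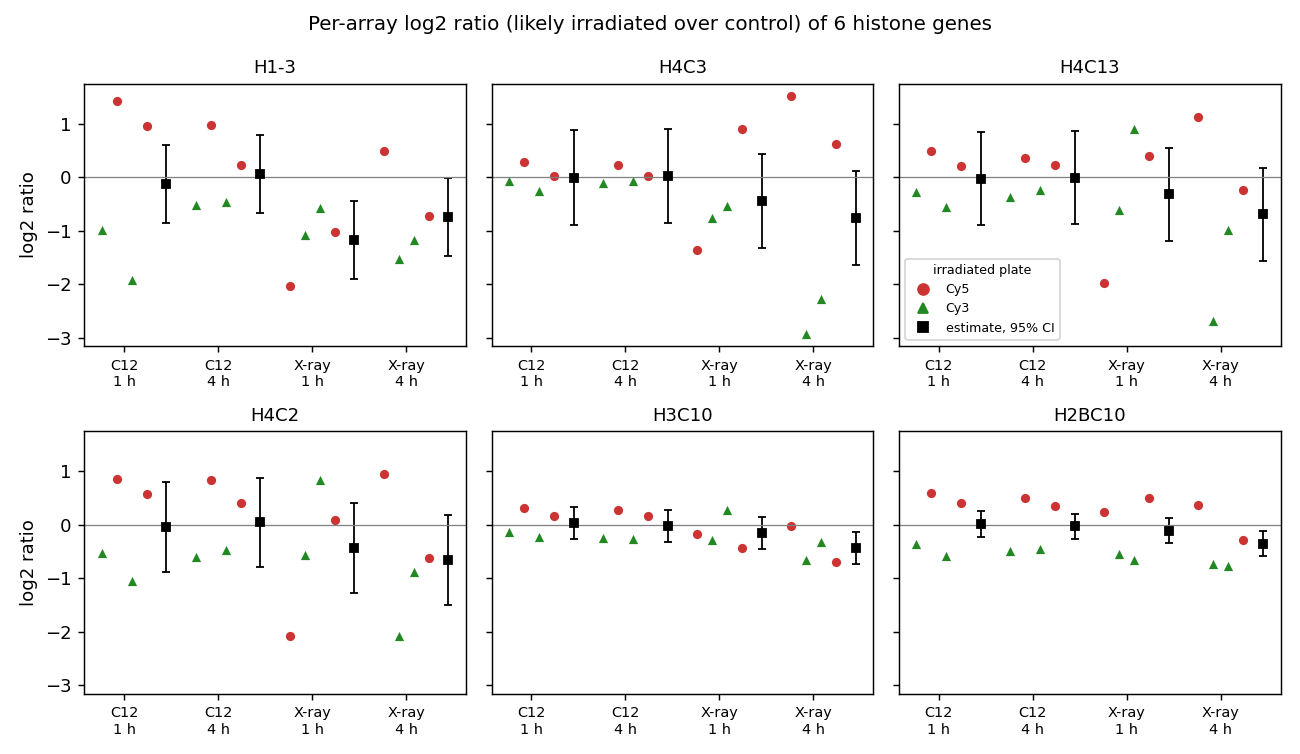
Log2 ratio (y axis) of 6 histone genes on each of the 16 arrays by group (x axis), with the dye of the irradiated plate by colour and shape, and the fitted estimate with its 95% confidence interval as a black square. In both C12 groups the Cy5 arrays of these genes lie above 0 and the Cy3 arrays below it, and H4C3 spans from -2.93 to 1.52 at 4h after X-rays.

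After C12 the histone estimates lay around 0. The median was -0.010 at 1h, with 39 of 66 negative (48.6% of all genes), and -0.0013 at 4h, with 34 of 66 negative (46.5%). Limma called 0 of 66 genes in either group, against 0% and 0.0109% of all genes, and 0 had an unadjusted p under 0.05, against 0.158% and 0.240%. The estimates ran from -0.21 (H4C7, which encodes a divergent H4) to 0.22 (H1-1) at 1h, and from -0.14 (H2AC16) to 0.14 (H2AC7) at 4h. H1-3, the lowest after X-rays, had -0.13 at 1h and 0.055 at 4h. H4C3 had -0.010 and 0.019.

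Values near 0 did not come from arrays near 0. For H1-3 the arrays gave -0.98, 1.43, -1.93 and 0.95 at 1h after C12. For H1-2 they gave -0.70, 1.13, -0.95 and 0.66. In both genes the sign alternated with the dye of the irradiated plate, which was Cy3 in replicates 1 and 3 and Cy5 in replicates 2 and 4. The array medians of the 66 genes were -0.34, 0.52, -0.51 and 0.31 at 1h and -0.39, 0.46, -0.35 and 0.28 at 4h. A total of 50 of 66 genes was above 0 on both Cy5 arrays and below 0 on both Cy3 arrays at 1h (47.8% of all genes), and 49 were at 4h (46.4%). After X-rays, where Cy5 marked the irradiated plate in replicates 1 and 4, 12 genes had this order at 1h (14.3%) and 17 at 4h (7.91%).

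**Figure D3:**
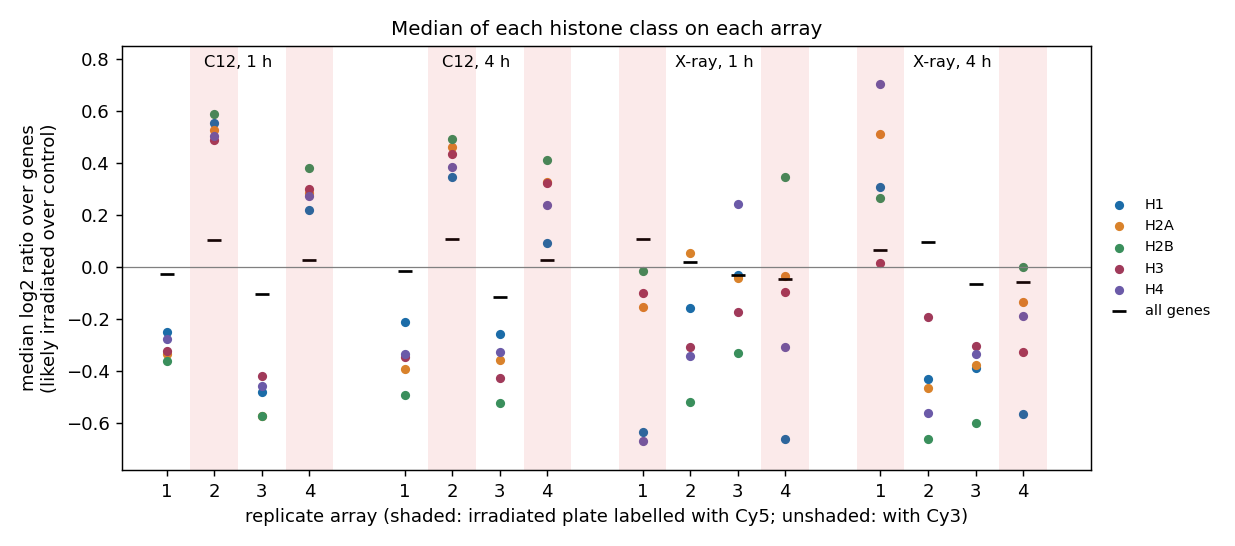
Median log2 ratio (y axis) of each histone class and of all genes on each array (x axis, 4 replicates in each of 4 groups), with arrays shaded where the irradiated plate carried Cy5. On the C12 arrays every class lies above 0 on shaded and below 0 on unshaded arrays. The X-ray arrays are less regular.

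The dye coefficient put a number on this. In the shared fit, 36 histone genes had a coefficient above 0 that passed limma's adjusted test (25% of all genes) and 5 had one below 0 that did (22.7%). With a coefficient for each radiation quality, 43 passed above 0 on the C12 arrays (37.2% of all genes) and 14 on the X-ray arrays (5.53%), 11 of the latter in H2B. The coefficient was above 0 in 56 of 66 genes on C12 arrays (53.9% of all genes) and in 48 on X-ray arrays (49.3%), with medians of 0.40 and 0.11. H1-3 had the largest histone coefficient on C12 arrays, 0.94, and H4C3 the largest on X-ray arrays, 1.02, which was also the highest of all genes there. As the dyes were balanced within each group, this term did not change the group estimates from all arrays, and their medians were the same without it. It altered their standard errors and p-values.

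Many deposited values were shared digit for digit by several features of an array. On the 16 arrays, 68.1% to 83.4% of all features had a value that at least 1 other feature of the array also had, in sets of up to 1239 features. Of the 87 histone features, 32.2% to 60.9% did. A histone feature shared its value on a median of 7 arrays, and a feature of the whole table on 16. The 4 lowest genes at 4h after X-rays were read mostly by values of their own: H4C3 and H4C13 shared theirs on 0 arrays, H4C2 on 1 and H1-3 on 2. Others with low estimates shared theirs more often, H3C10 and H4C5 on 13 arrays and H1-5 on 14. At the other end, H1-1, H1-6, H2AC1, H2AC6, H2AC16, H2BC1, H2BC18 and H4C7 shared theirs on all 16 arrays. H1-6, H2AC1 and H2BC1 encode histones of male germ cells. Of these 8 genes all but H2AC6 had a dye coefficient below 0 on the C12 arrays.

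Split at 4 arrays, a limit set after the values were seen, 23 histone genes shared few values (14.9% of all genes did) and 43 shared more. The 23 had a median of -0.23 at 4h after X-rays and 22 were negative, where all 2738 genes of that kind had a median of 0.046 and 40.9% were negative. The other 43 had a median of -0.11, and 32 were negative. At 1h the medians were -0.14 and -0.13. The dye coefficient on C12 arrays was above 0 in all 23 genes, with a median of 0.63, but also in all but 1 of the 2738 genes, with a median of 0.57. In the other 43 it had a median of 0.22. What gave rise to the shared values was not tested.

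**Figure D4:**
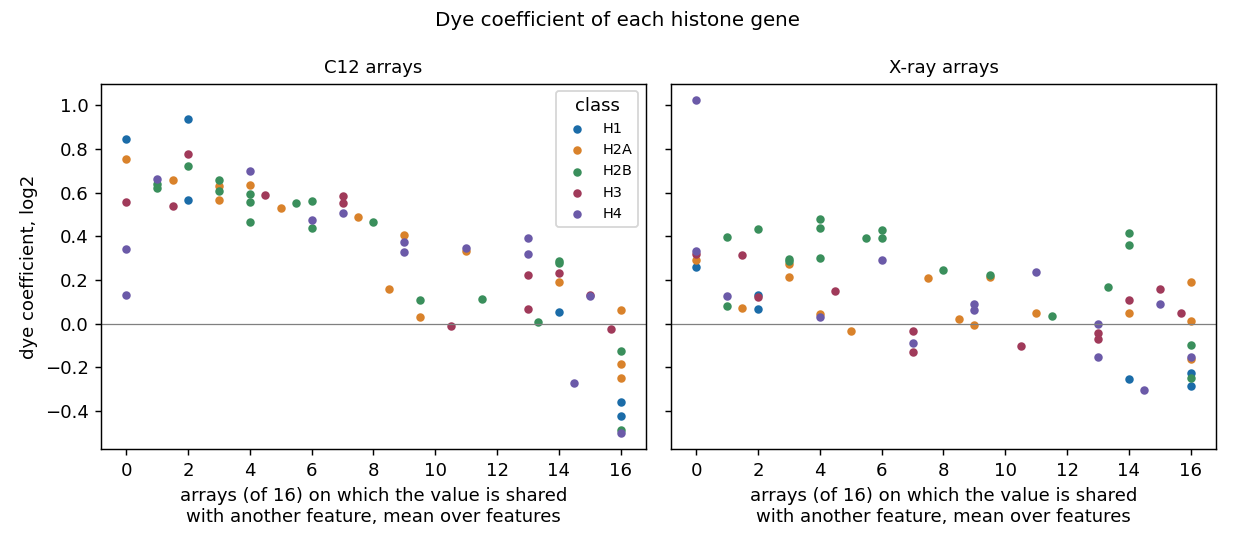
Dye coefficient of each histone gene (y axis, log2) on C12 and on X-ray arrays against the number of arrays on which its deposited value was shared with another feature (x axis, 16 arrays, mean over the features of a gene), coloured by class. On C12 arrays the coefficients are above 0 for genes with few shared values and mostly below 0 for those shared on 16 arrays.

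The C12 and X-ray estimates of the same time were set against each other in the same fit. C12 lay above X-rays in 51 of 66 histone genes at 1h (median difference 0.13) and in 57 at 4h (median 0.17), where 51.9% and 49.7% of all genes lay below. None of the 66 differences passed limma's adjusted test at either time, and 0% of all genes did. At an unadjusted p under 0.05, H1-3 (1.05 ± 0.49, SE) and H2BC5 (0.51 ± 0.22) were higher after C12 at 1h, which 0.447% of all genes were, and 0 histone genes were at 4h (0.475%). All 12 H3 genes were above 0 in the 4h difference. Unequal doses cannot be told apart from the kind of radiation here. Each of these differences uses the same X-ray arrays as the X-ray estimates above, so they are no separate observation of them.

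The 4h and 1h estimates were compared within each kind of radiation. After C12, limma called 0 of 66 (0% of all genes) and 0 had an unadjusted p under 0.05 (0.131%). After X-rays it called 0 of 66 (0% of all genes), 36 were lower at 4h than at 1h (48.0% of all genes), and the median difference was -0.023. H2BC18 (0.39) and H3C11 (0.35) were higher at 4h at an unadjusted p under 0.05, as were 1.76% of all genes. H2BC12 had the lowest difference, -0.49, from 0.19 at 1h to -0.31 at 4h. By class, H2B was lower at 4h in 14 of 19 genes, while H4 was lower in 5 of 14.

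Most H2A and H2B genes are arranged as divergent pairs with a shared promoter region. Among the 60 genes with a listed promoter, 10 neighbouring pairs of H2A with H2B had starts within 500 bases of each other on opposite strands. Both partners lay below 0 in 8 of 10 pairs at 4h after X-rays, in 5 at 1h, and in 2 and 5 after C12 at 4h and 1h. The median difference in size between partners was 0.12 at 4h after X-rays, which is under the standard error of a single gene. The pair H2AC15 and H2BC15 was split there, at -0.15 and 0.030. The features of H2BC15 differed in sign, at 0.23 and -0.17, while those of H2AC15 both lay below 0, at -0.29 and -0.0069.

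The 14 H2B genes with an octamer in the window had a median of -0.23 at 4h after X-rays (13 negative), and the 4 without it, H2BC5, H2BC13, H2BC15 and H2BC26, had -0.25 (3 negative). The exception among these 4, H2BC15, is the mean of features at 0.23 and -0.17. At 1h the medians were -0.077 and -0.37, the latter with the feature disagreement of H2BC5 and H2BC26 given above. RefSeq gives 8 histone genes a model over 1000 bases, longer than the compact form usual for these genes: H2BC4, H2BC5, H2BC12, H2BC18, H2BC21, H3C4, H3C6 and H4C15. Their median at 4h after X-rays was -0.24, against -0.14 in the other 58, and 5 of the 8 are H2B genes, whose class median was -0.23. At 1h both sets had a median of -0.14. Which transcript form each feature reads was not tested.

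The genes that make or handle histone mRNA were taken as a list of which 24 of 25 were measured. Limma called 0 of the 24 in any comparison. SLBP, the stem-loop binding protein, gave -0.42, -0.19, -0.81 and -1.03 at 4h after X-rays, all below 0. Its estimate was -0.61 ± 0.19 (SE), with an unadjusted p of 0.00568 and a limma adjusted p of 0.322. At 1h its arrays lay on both sides of 0, with an estimate of 0.13. NPAT, the coactivator of histone transcription, was at -0.17 and CASP8AP2 (FLASH), a histone pre-mRNA processing factor, at -0.30 at 4h, with 0.16 and 0.22 at 1h. After C12 the 3 genes lay between -0.092 and 0.11. The median of the list was 0.035 at 1h after X-rays, with 8 of 24 negative, and -0.085 at 4h, with 15 of 24 negative. UPF1, a factor of histone mRNA decay, was highest at 4h with 0.20. E2F2 had the smallest adjusted p of the list there, 0.174 by limma, from arrays at -0.36, -0.57, -0.31 and -0.58. At a limma unadjusted p under 0.05, 3 of 24 were lower at 4h (2.24% of all genes) and 0 higher (4.48%).

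The other lists set the histone values beside related genes, again with 0 genes called in any comparison. Of 17 histone chaperones 8 were negative at 4h after X-rays (median 0.027), with ASF1A, the H3-H4 chaperone, lowest at -0.35. Of 15 S-phase genes 9 were negative (median -0.030), from MCM6, a helicase subunit, at -0.28 to TYMS, thymidylate synthase, at 0.35. Of 11 replication-independent histones 8 were negative (median -0.11). The lowest was CENPA, the centromeric H3, at -0.96 ± 0.29 (SE) with a limma adjusted p of 0.282, and the highest MACROH2A2 at 0.35. At 1h after X-rays 8 of 17 chaperones (median 0.046), 4 of 15 S-phase genes (median 0.045) and 7 of 11 replication-independent histones (median -0.021) were negative.

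The counts depend on the reading of the direction. With ratios turned only by the dye that the array of the other quality with the same time and number carried, and no dye coefficient, a reading added after the values were seen, 43 histone genes passed at 1h and 41 at 4h after C12, most of them above 0, but so did 55.4% and 54.9% of all genes. In that reading 11 passed at 1h after X-rays (13.4% of all genes) and 13 at 4h (6.46%), all 13 of the latter above 0. The median at 4h after X-rays was then 0.27 in place of -0.17. These values equal the ones used here times +1 where the irradiated plate carried Cy5 and -1 for Cy3. If the direction used here is right, their group means are the dye effect of each group described above. If the reading by the other quality's dye is right instead, what is called a dye effect above holds the effect of the exposure. Which of these holds was not tested. Read as Cy5 over Cy3 by the labels, the medians after X-rays were 0.041 at 1h and -0.14 at 4h, and read as irradiated over control without turning they were 0.067 and -0.091. In either reading 0 histone genes were called, but so were 0% of all genes. The labels do not decide between these readings.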

How the data were processed

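Ratios of an irradiated and a control plate of A549 cells were analysed on 16 Agilent arrays with 2 dyes. The authors deposited 1 log2 ratio per feature and array, made with limma per the submitters' processing notes, which give no version. For background correction, normalization, log base and direction the steps were not given in the sources used here. The values were read as base 2, which limma normally writes, and every array had nearly the same distribution (SD of 0.414). Depth does not apply to arrays, and their number limits the precision.

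Of 45220 features, 31332 carried 1 gene symbol, 93 several and 13795 none here. Symbols came from GEO's platform annotation, updated through Entrez identifiers (31291 features), and 1 histone feature with several symbols was left out. Features of a gene were averaged. Replicates 1 and 2 of each group were multiplied by -1, and the overall sign was set in earlier work on these data so that p53 target genes are higher after X-rays. Limma 3.58.1 in R 4.3.3 fitted 4 group means and 1 dye coefficient (+1 where the irradiated plate carried Cy5, -1 for Cy3) to all 16 arrays, with 11 residual and 6.58 prior degrees of freedom, and p-values were adjusted by Benjamini-Hochberg over 18334 genes at 0.05. The fit was tested on simulated data with known changes at X-ray 4h. It called 29% of 100 genes with a log2 change of 0.5 and 77% of 100 with a change of 1, beside 6 false calls. The simulation gave each gene the same spread on all arrays. In the data the residual SD of the histone genes was 0.23 on C12 and 0.43 on X-ray arrays. The histone genes, gene lists and tests were chosen with earlier results of these data known.

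Genes to name were those passing any comparison, the highest and lowest of each class in each group, and the 10 largest absolute estimates at 4h after X-rays. To these came the highest and lowest of each list at 4h, SLBP, NPAT and CASP8AP2, and genes whose features differ in sign. Not all of these genes are named above. Others are named after their values were seen. Alternatives covered the dye term, arrays in the fit, array weights, normalization, features, direction, replicate numbers and single arrays. Same-numbered arrays of 2 groups, after the dye term, correlated with r from -0.312 to 0.0811 across genes, so the replicate numbers were not taken as pairs.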

Additional observations from a re-analysis of the deposited data

Results flagged for a closer look

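In 16 of 272 sets of 4 arrays, 1 array lay far from the other 3, and chance gives about 1 in 20 such sets. A set is 1 gene in 1 group, or the median of a class or of all histone genes in 1 group. The genes were partly chosen by their estimates or by features of unlike sign, so that rate is only a rough guide. Most were in the X-ray 4h group. There replicate 1 stood above the rest for H2AC12 (0.77), H2AC20 (0.70), H1-4 (0.63) and H2BC13 (0.42), each with its other 3 arrays below 0. Replicate 3 stood apart for H2BC1 (0.57), H1-1 (0.57), H2BC18 (0.54), CCNE2 (0.55) and TYMS (-0.59), and replicate 2 for HAT1 (1.01). At 1h after X-rays replicate 4 stood apart for H2BC26 (-0.079) and H2BC5 (-0.090), whose other arrays were lower, and replicate 3 for H2AC20 (0.17) and ASF1A (-0.14). After C12 the array apart was replicate 1 at 1h for ASF1A (0.24) and replicate 2 at 4h for H2BC11 (0.24).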

How the results depend on the processing

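The count of histone genes called was 0 in all 8 comparisons with no dye coefficient, with 1 dye coefficient per radiation quality, with array weights, with only arrays of the same radiation quality or time, with either scaling between arrays, with the median of features or single features, and under the readings as Cy5 over Cy3 and as deposited. With a replicate block (consensus correlation 0.131) it was also 0. Few genes of any kind were called in these settings. At X-ray 4h the share of all genes was 0.115% with no dye coefficient, 1.21% with 1 per radiation quality and 0.0109% with array weights. It was 0.224% with only arrays of the same quality, and 0% under the readings as Cy5 over Cy3 and as deposited. In every other comparison it was at most 0.0873%. The exceptions for X-ray 4h were 2 genes from the arrays of that group alone and, leaving out 1 replicate at a time, 0 to 1. The median at 1h after X-rays was -0.26 with array weights, 0.041 read as Cy5 over Cy3 and 0.067 as deposited. Leaving out each replicate in turn moved the medians between -0.079 and 0.092 (C12 1h), -0.060 and 0.038 (C12 4h), -0.19 and -0.030 (X-ray 1h), and -0.24 and -0.089 (X-ray 4h). Ratios turned by the other quality's dye code, chosen after seeing the data, gave counts of 43, 41, 11 and 13 in C12 1h, C12 4h, X-ray 1h and X-ray 4h, 6 and 11 for C12 against X-rays at 1h and 4h (1.04% and 30.9% of all genes), and 7 for X-ray 4h against 1h (3.94%), with a median of 0.27 at X-ray 4h. That last reading equals the analysed values times +1 for Cy5 and -1 for Cy3. Its group means are the dye effect of each group only if the direction used here is right. The cause of the other differences was not tested beyond the change of sign that each reading makes. The limits are 4 arrays a group, an unsettled direction, and ratios without signals, so that features near background could not be left out. A p that missed the threshold does not show that a histone gene was unchanged.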
